A study of Mus musculus with 48 samples.

Results

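A set of 10 genes of the blood vessel lining was followed through liver and visceral white fat of mice that differed in sex, diet and time on the diet. The genes were taken by symbol: Kdr, Cdh5, Pecam1, Stab1, Stab2, Lyve1, Tek, Flt4, Eng and Clec4g, 10 of the 30055 symbols in the table. The rule itself uses no measured value. In liver, 9 of the 10 had their lowest mean level in males after 12 weeks on a high-fat diet, and the same 9 were lower in those males than in females on that diet. Lyve1 was the exception in both respects.

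Endothelial cells line all blood and lymphatic vessels. In the liver most of them are sinusoidal endothelial cells, which have open pores and no continuous basement membrane, and which clear waste macromolecules from the blood through scavenger receptors. Vascular endothelial growth factors act through Kdr and Flt4, angiopoietins through Tek, and ligands of the transforming growth factor family, BMP9 among them, use Eng as a co-receptor. Cdh5 and Pecam1 hold neighbouring endothelial cells together and are found in endothelium of nearly every organ. Stab1, Stab2, Lyve1 and Clec4g are surface receptors of sinusoidal or lymphatic endothelium, and Stab1 and Lyve1 are also made by some tissue macrophages.

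C57BL6/J mice of both sexes from Charles River were 8 weeks old when they stayed on regular chow (RD, the control) or went onto a high-fat diet (HFD) with 45% of its calories from fat. One cohort was killed after 2 weeks and another after 12 weeks, so time on the diet, age and cohort cannot be told apart. Stranded polyA RNA libraries were made from 200 ng of total RNA per sample. Tissue, sex, diet and time gave 16 groups with 3 libraries in each, 48 libraries in all; no genotype or drug was varied. The labels number the libraries and do not say that each came from a different animal, so p-values measure the spread between these libraries. A liver or a fat pad is a mixture of cells, and fewer endothelial cells cannot be told apart from less RNA per endothelial cell.

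On mouse build GRCm38, in the GENCODE M21 annotation, all 10 are protein-coding genes. Kdr (VEGF receptor 2) lies at chr5:75932827-75978458 on the minus strand and Flt4 (VEGF receptor 3) at chr11:49609263-49652739 on the plus strand. Tek, the angiopoietin receptor also called Tie2, lies at chr4:94739289-94874976 on the plus strand, and Eng (endoglin) at chr2:32646595-32682669 on the plus strand. Cdh5 (VE-cadherin) lies at chr8:104101625-104144511 on the plus strand and Pecam1 (CD31) at chr11:106654217-106750628 on the minus strand. The scavenger receptors Stab1 and Stab2 lie at chr14:31139013-31168641 on the minus strand and chr10:86841198-87008025 on the minus strand, the hyaluronan receptor Lyve1 at chr7:110850607-110863239 on the minus strand, and the C-type lectin Clec4g, also called LSECtin, at chr8:3707064-3720651 on the minus strand. Stab1 overlaps Nt5dc2 and Eng overlaps Fpgs, each on the opposite strand, and annotated opposite-strand genes without established names overlap Cdh5, Stab2 and Clec4g. Eng also holds the small RNA gene Mir1954 and 2 unnamed genes on its own strand. These overlaps are of whole gene spans, introns included, and overlap of exons was not examined. The annotated partners of Cdh5 and Clec4g are not among the deposited symbols. The sources used here do not state whether strand was used in counting. Whether any reads of these 5 genes were shared with a partner was not tested.

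The windows around the transcription start are printed for 4 genes named in the results below. Stab2 and Clec4g were the pair with the largest excess in liver over fat, and Kdr and Tek fell with the diet in male liver. Each window runs from 250 bases before to 50 bases after the start on the gene's own strand, from RefSeq on GRCm38.p6. Capitals mark CAGGAA or its reverse complement TTCCTG, a common form of the core bound by ETS factors, a family active in endothelium, and AGATAA or its reverse complement TTATCT, the core bound by GATA factors. The positions are chr10:87007893-87008192 (minus strand) for Stab2, chr8:3720602-3720901 (minus strand) for Clec4g, chr5:75978406-75978705 (minus strand) for Kdr and chr4:94739039-94739338 (plus strand) for Tek.
Stab2: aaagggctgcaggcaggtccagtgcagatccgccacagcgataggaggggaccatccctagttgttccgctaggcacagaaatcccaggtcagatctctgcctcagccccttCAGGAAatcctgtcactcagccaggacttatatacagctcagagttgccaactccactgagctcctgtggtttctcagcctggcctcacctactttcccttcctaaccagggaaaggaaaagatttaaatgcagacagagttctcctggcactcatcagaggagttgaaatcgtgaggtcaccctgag
Clec4g: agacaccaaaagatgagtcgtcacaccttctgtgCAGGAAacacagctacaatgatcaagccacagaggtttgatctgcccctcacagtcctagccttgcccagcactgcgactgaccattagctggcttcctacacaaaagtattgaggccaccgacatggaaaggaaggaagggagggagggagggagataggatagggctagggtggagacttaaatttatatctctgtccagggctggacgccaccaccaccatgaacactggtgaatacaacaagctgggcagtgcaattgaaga
Kdr: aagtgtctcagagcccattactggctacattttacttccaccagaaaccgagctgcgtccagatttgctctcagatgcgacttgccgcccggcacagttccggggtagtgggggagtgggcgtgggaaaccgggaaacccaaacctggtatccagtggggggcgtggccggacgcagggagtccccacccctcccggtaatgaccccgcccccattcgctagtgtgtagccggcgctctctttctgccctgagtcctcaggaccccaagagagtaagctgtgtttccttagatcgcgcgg
Tek: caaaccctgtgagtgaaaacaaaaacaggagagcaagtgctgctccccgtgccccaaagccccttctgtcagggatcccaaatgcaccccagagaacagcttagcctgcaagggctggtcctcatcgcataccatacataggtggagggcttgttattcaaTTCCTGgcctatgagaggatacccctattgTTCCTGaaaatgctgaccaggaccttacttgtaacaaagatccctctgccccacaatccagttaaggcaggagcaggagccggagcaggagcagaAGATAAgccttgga
Stab2 and Clec4g each hold 1 match to the ETS core, Tek holds 2 and also 1 match to the GATA core, and Kdr holds neither. Windows were at hand for 7 of the 10 genes, and Cdh5, Pecam1 and Lyve1 had none in the table used. Of the 7, 5 (71.4%) held the ETS core, with 2 matches in Stab1, 1 in Eng and none in Flt4. The same letters were found in 30.6% of all 32851 windows. The GATA core was found in 1 of the 7 (14.3%), in Tek, against 11.2% of all windows. A match describes the letters only, and the 2 motifs did not overlap in any of the printed windows.

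Liver libraries held totals of 50.9 to 80.1 M counts and fat libraries 44.7 to 105.4 M. Levels are given below as CPM, the usual unit of counts scaled to library depth, with TMM scaling within a tissue. Alb, the main secreted protein of hepatocytes, was at 37855 CPM or more in every liver library, Adipoq of adipocytes was at 880 CPM or more in every fat library, and the Y-linked Ddx3y was at 41.7 CPM or more in every male and at 0.806 CPM or less in every female library. In fat, 5 transcripts of the epididymis (Crisp1, Gpx5, Lcn8, Lcn9 and Defb20) summed to 2713 to 7386 CPM in 6 male libraries: all 3 on RD at 12 weeks, libraries 6 and 8 on RD at 2 weeks and library 13 on HFD at 2 weeks. They were at 9.99 CPM or less in the other 18. Here and below, sums of these 5 transcripts are CPM on total counts, without TMM scaling. One fat library also stood apart, number 1 of females on HFD at 2 weeks, with adipocyte markers summed at 7932 CPM against 23269 and 27046 CPM in its group. Its bile duct markers summed to 968 CPM, against 54.4 and 64.0 CPM. Its epididymal and epithelial markers summed to 837 CPM, against 16.2 and 16.3 CPM, although the 5 epididymal transcripts were at 0.0665 CPM. Its stellate and mural markers summed to 2096 CPM, against 873 and 975 CPM.

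Clec4g and Stab2 were at far higher levels in liver than in fat, while the ranges of the other 8 genes overlapped between the tissues. Both tissues were scaled together here, and levels were divided by the summed exon length so that genes can be compared, in CPM per kb. In liver the medians over 24 libraries ran from 5.10 CPM per kb for Lyve1 to 33.0 for Clec4g. Eng followed at 27.1, Cdh5 at 13.1, Kdr at 10.7, Stab2 at 9.83 and Stab1 at 9.03, and Flt4, Pecam1 and Tek were at 6.34, 6.13 and 5.42. Every gene in that order overlapped the next in its range over the libraries. In fat Cdh5 came first with a median of 39.8 CPM per kb, then Pecam1 at 24.6 and Eng at 24.1. Lyve1 was at 15.5, Kdr at 11.5, Stab1 at 11.4, Tek at 9.50 and Flt4 at 1.78. Clec4g and Stab2 were last, at 0.111 and 0.0757 CPM per kb, with 2 to 68 and 25 to 209 counts per library. The only neighbours in the fat order without overlap were Flt4 and Clec4g.

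**Figure D1:**
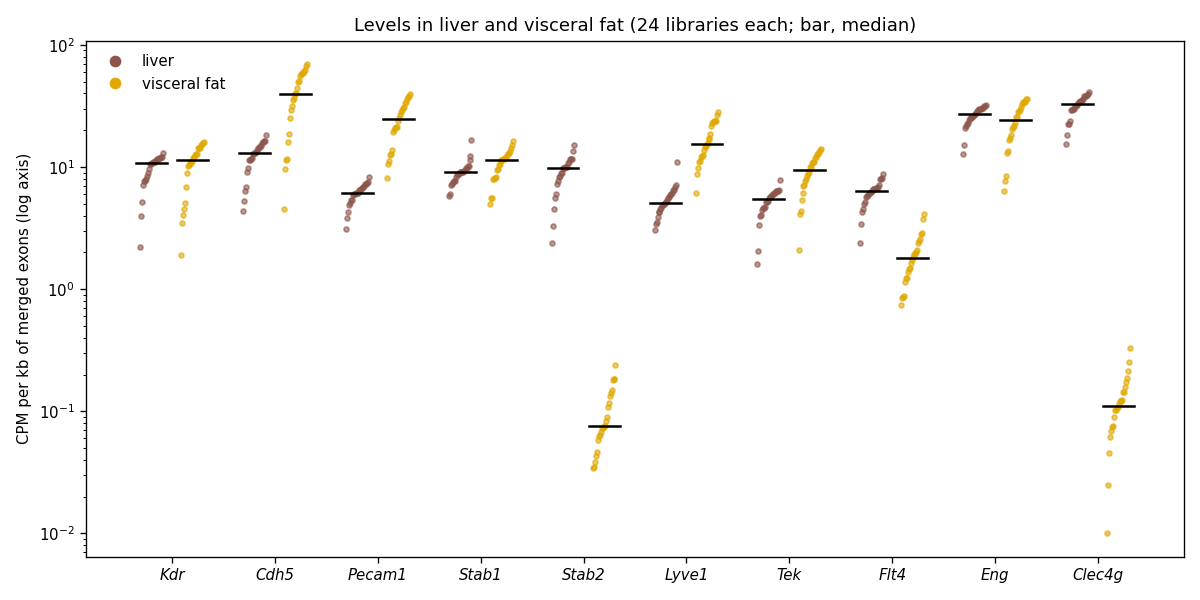
Level of the 10 genes per kb of exon on a log axis, 1 point per library and a bar at the median of 24 libraries, for liver and visceral fat scaled together. Clec4g and Stab2 sit at medians of 33.0 and 9.83 CPM per kb in liver and at 0.111 and 0.0757 in fat, with no overlap between the tissues.

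Liver exceeded fat for the sinusoidal receptors Clec4g, by 8.06 ± 0.17 (log2 fold change ± SE, mean over the 8 conditions), and Stab2, by 6.60 ± 0.13. Flt4 was also higher in liver, by 1.73 ± 0.12. In the same edgeR test 5 genes were lower in liver: Pecam1 at -1.95 ± 0.10, Lyve1 at -1.67 ± 0.13, Cdh5 at -1.61 ± 0.17, Tek at -0.83 ± 0.11 and Stab1 at -0.21 ± 0.09. With liver and fat libraries of the same number as a block, the Stab1 call was lost (adjusted p = 0.074) and Eng was called (adjusted p = 0.019). In the reported fit Kdr, at -0.17 ± 0.15, and Eng, at 0.22 ± 0.11, were not called. All of these values rest on TMM scaling over very different tissues, and the smaller ones depend on it. With scaling within each tissue, group means of Eng ran from 46.1 to 85.2 CPM in liver and from 70.5 to 207 CPM in fat. Those of Flt4 ran from 19.3 to 41.5 CPM in liver and from 12.8 to 42.0 CPM in fat. The 8 calls among 10 genes are near the share over all 18800 genes tested, of which 80.4% were called, so that count is no result about these genes. In other liver sinusoidal genes, from a list of 20, 13 were higher and 5 lower in liver, with Oit3 at 7.53 ± 0.19 and Dnase1l3 at 5.50 ± 0.13. Of 28 other pan-endothelial genes 1 was higher and 25 lower, with the sialomucin Cd34 at -5.16 ± 0.09 and the tight-junction gene Cldn5 at -3.48 ± 0.10. Medians were 1.93 for the sinusoidal list, -1.50 for the pan-endothelial list and -0.17 over all genes tested.

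In liver at 12 weeks on HFD, females stood above males for 9 of the 10 genes. The angiogenic receptors came first. Kdr measured 51.4, 67.3 and 53.9 CPM in the 3 females and 32.1, 25.3 and 14.5 CPM in the 3 males, and the lowest female was above the highest male. Its log2 fold change was 1.26 ± 0.23 (adjusted p = 0.00058). Flt4, which marks lymphatic vessels elsewhere and is present in sinusoidal endothelium, measured 35.2, 44.9 and 33.9 CPM in females and 23.98, 19.5 and 14.4 CPM in males, again without overlap, a difference of 0.98 ± 0.18 (adjusted p = 0.00068). Tek, which keeps vessels quiescent when angiopoietin is bound, measured 15.1, 20.6 and 19.0 CPM in females and 10.8, 6.82 and 5.49 CPM in males. The difference was 1.24 ± 0.19 (adjusted p = 0.00016), and all 3 females were above all 3 males. Eng measured 73.9, 89.8 and 79.8 CPM in females and 58.0, 42.6 and 37.8 CPM in males, a difference of 0.81 ± 0.13 (adjusted p = 0.00014). Here too the groups did not overlap.

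The junction genes and the scavenger receptors moved the same way in this comparison. Cdh5 measured 34.0, 41.8 and 37.2 CPM in females and 18.4, 15.4 and 13.4 CPM in males, a difference of 1.26 ± 0.21 (adjusted p = 0.00039). Pecam1 measured 25.4, 31.9 and 25.8 CPM and 18.3, 16.5 and 14.1 CPM, a difference of 0.76 ± 0.14. For both, the highest male was below the lowest female. Stab2, which takes up hyaluronan from the blood, had the largest difference of the 10, with 50.1, 70.6 and 58.3 CPM in females against 27.0, 20.1 and 15.3 CPM in males. Its log2 fold change was 1.52 ± 0.23 (95% interval 1.06 to 1.98, adjusted p = 0.00014). Clec4g measured 49.8, 59.2 and 53.7 CPM in females and 37.7, 31.2 and 27.4 CPM in males, a difference of 0.76 ± 0.13. Both receptors were without overlap between the sexes. Stab1 had the smallest called difference, 0.63 ± 0.19 (adjusted p = 0.026), from 71.7, 80.7 and 63.5 CPM in females and 52.7, 41.6 and 45.1 CPM in males. Its call was lost when library 3 or 6 of the females or library 3 or 4 of the males was left out, with adjusted p from 0.059 to 0.099. Lyve1 did not pass, at 0.07 ± 0.18, with 11.3, 12.1 and 9.62 CPM in females and 10.3, 10.9 and 10.4 CPM in males.

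**Figure D2:**
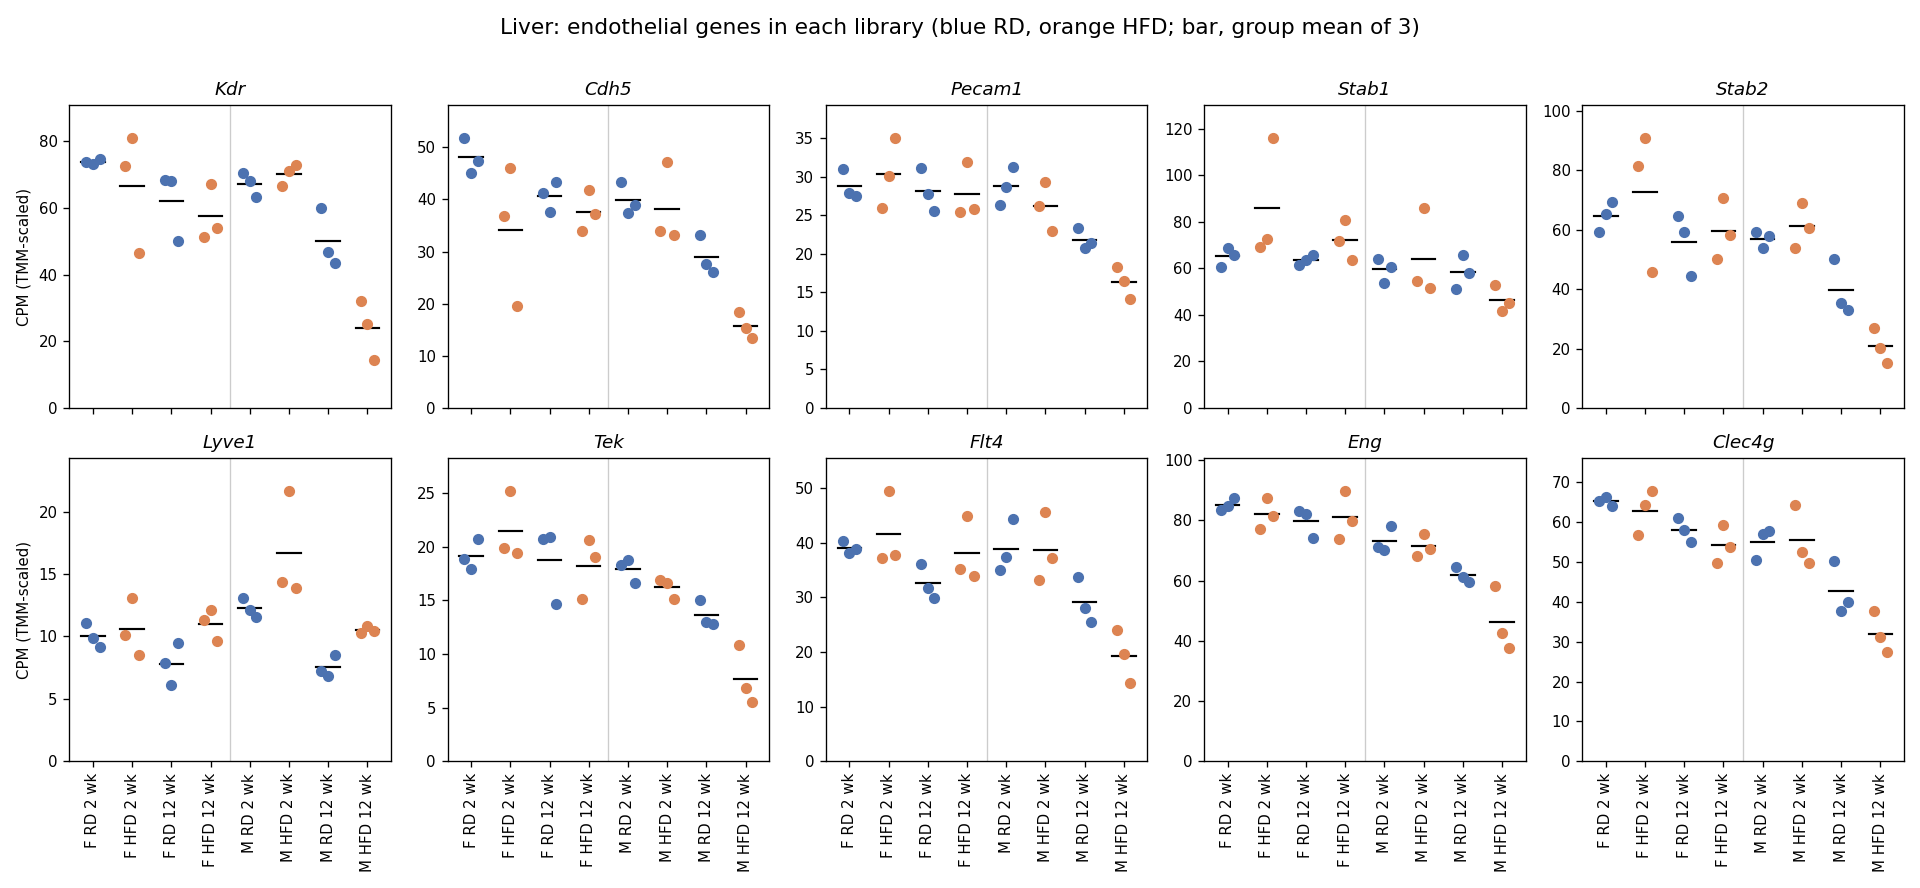
Level of each gene in the 24 liver libraries in CPM, by sex (F, M), diet (blue RD, orange HFD) and weeks, with a bar at the mean of 3. Males on HFD at 12 weeks are the lowest group in every panel but Lyve1, with Stab2 at 15.3 to 27.0 CPM against 50.1 to 70.6 CPM in females on the same diet.

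Over all 15897 genes tested in liver, 17.3% were called in this comparison, against 9 of these 10, and the median log2 fold change was 0.90 for the 10 genes and 0.01 over all genes. The 9 genes had all 3 females above all 3 males, as had 18.9% of all genes tested. Leaving out any 1 of the 6 libraries left 8 or 9 of the 10 called and 1651 to 3247 of all genes, against 2756 with all libraries. On RD at 12 weeks the same comparison gave 1 call of 10, with 8.81% of all genes called. That gene was Clec4g, at 61.0, 58.1 and 54.9 CPM in females and 50.2, 37.7 and 39.9 CPM in males, a difference of 0.45 ± 0.13 (adjusted p = 0.040). The groups did not overlap, but the call was lost when any library but number 2 of the males was left out. All 10 values were above 0, with a median of 0.37 against 0.03 over all genes, and 6 had an unadjusted p under 0.05. Cdh5, Pecam1 and Eng also did not overlap between the sexes on RD; the 4 of 10 without overlap are near the 35.4% of all genes tested. DESeq2 called 2 of the 10, Clec4g and Eng. With median-of-ratios scaling the adjusted p of Clec4g was 0.052. Kupffer cell and macrophage markers, described below, moved with these genes in both comparisons, and their part in the results was not tested.

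In male liver at 12 weeks HFD lowered 3 of the 10 genes, with 1.12% of all genes called. Kdr went from 60.0, 46.8 and 43.4 CPM on RD to 32.1, 25.3 and 14.5 CPM on HFD, a log2 fold change of -1.06 ± 0.22 (adjusted p = 0.023). Cdh5 went from 33.3, 27.7 and 26.1 CPM to 18.4, 15.4 and 13.4 CPM, at -0.88 ± 0.21 (adjusted p = 0.047). Tek went from 15.1, 13.0 and 12.8 CPM to 10.8, 6.82 and 5.49 CPM, at -0.82 ± 0.19 (adjusted p = 0.041). None of the 3 overlapped between the diets. Stab2 missed the threshold at -0.93 ± 0.23 (adjusted p = 0.054) although its 3 HFD libraries lay below its 3 RD libraries, which measured 50.3, 35.4 and 33.0 CPM. It was called with DESeq2 (adjusted p = 0.0063), median-of-ratios scaling (0.047), no filter (0.045) and the replicate number as a block (0.022), and not with the 6 libraries alone (0.35). Flt4, Eng, Pecam1 and Clec4g were not called either, at -0.59, -0.42, -0.42 and -0.41, and each was without overlap. Stab1 was at -0.33 with overlapping groups. In all, 8 of the 10 had all 3 HFD libraries below all 3 RD libraries, as had 9.07% of all genes tested.

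These 3 calls rest on few libraries. None of the 10 was called without HFD library 3, HFD library 4, RD library 2 or RD library 3, 1 was called without RD library 4, and 7 were called without HFD library 2. Over all genes 21 to 353 were called in these fits, against 178 with all libraries. DESeq2 called 6 of the 10, and a fit of the 6 libraries alone called none. Of the 10, 9 had an unadjusted p under 0.05. The median over the 10 was -0.50, against 0.02 over all genes. Lyve1 differed in sign, at 0.49, from 7.27, 6.81 and 8.48 CPM on RD to 10.3, 10.9 and 10.4 CPM on HFD, without overlap and without a call.

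In female liver at 12 weeks no gene of the 10 was called between the diets by edgeR, 1 had an unadjusted p under 0.05 and DESeq2 called none. Only 0.00629% of all genes were called there. Kdr measured 68.4, 68.2 and 50.2 CPM on RD and 51.4, 67.3 and 53.9 CPM on HFD, and Stab2 64.4, 59.1 and 44.5 CPM and 50.1, 70.6 and 58.3 CPM. The groups overlapped for both, and the 95% intervals of the log2 fold change were -0.55 to 0.32 and -0.36 to 0.54. Whether the diet acted differently in the sexes was tested by the interaction of sex and diet. It called none of the 10 and 0% of all genes at 12 weeks, where 7 of the 10 had an unadjusted p under 0.05 and DESeq2 called none. All 10 interaction values were above 0, the sign that stands for a larger ratio of HFD to RD in females. They ran from 0.01 for Lyve1 to 1.02 ± 0.33 for Stab2 (adjusted p = 0.47). A difference in diet response between the sexes was not called for any of these genes.

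From 2 to 12 weeks 9 of the 10 were lower in livers of males on HFD, with 17.1% of all genes called. Stab2 was at 53.8, 69.1 and 60.4 CPM at 2 weeks and 27.0, 20.1 and 15.3 CPM at 12 weeks (-1.56 ± 0.23, adjusted p = 0.00016). Kdr was at 66.5, 71.2 and 72.8 CPM and 32.1, 25.3 and 14.5 CPM (-1.55 ± 0.23). Neither gene overlapped between the times. Cdh5, Tek and Flt4 fell by 1.27, 1.07 and 1.00 on the log2 scale, and Clec4g, Pecam1, Lyve1 and Eng by 0.79, 0.68, 0.66 and 0.63. Stab1 was not called, at -0.46 ± 0.19. A fit of the 6 libraries alone called 5 of the 10, and the Lyve1 call was lost without library 13 of the 2-week males (adjusted p = 0.14). The comparisons of HFD males at 12 weeks with females, with RD males and with 2-week males share the same 3 libraries, so they are not independent of one another.

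**Figure D3:**
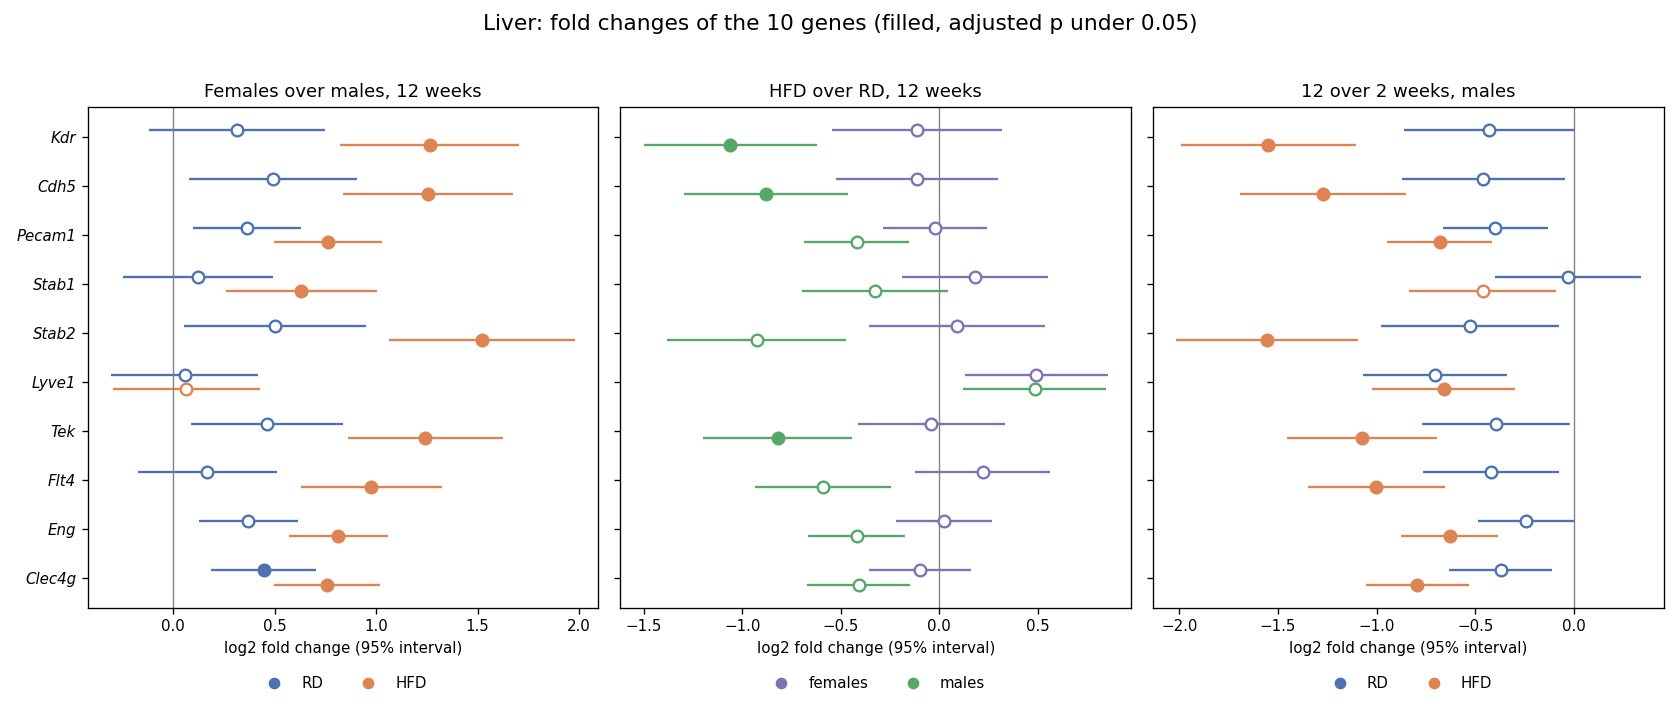
Log2 fold changes in liver with approximate 95% intervals, filled where the adjusted p is under 0.05, for females over males at 12 weeks, HFD over RD at 12 weeks and 12 over 2 weeks in males. The HFD male libraries at 12 weeks enter 3 of the 6 series plotted, and in those Stab2 lies at 1.52, -0.93 and -1.56.

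Males on RD had no call over the same interval, with 0.233% of all genes called. All 10 values were negative, from -0.70 for Lyve1 to -0.03 for Stab1, 6 had an unadjusted p under 0.05 and DESeq2 called 1, Lyve1. For 9 of the 10, all but Stab1, the RD males at 12 weeks did not overlap those at 2 weeks and lay below them, as did 11.3% of all genes tested. In females none of the 10 was called over time on RD, with 0% of all genes called, or on HFD, with 0.0189% called. None had an unadjusted p under 0.05 or a DESeq2 call in either. In females on RD all 10 values were negative too, with a median of -0.19 against -0.002 over all genes. Kdr, Cdh5, Flt4, Eng and Clec4g, 5 of the 10, lay below without overlap there, as did 9.01% of all genes tested. On HFD 8 values were negative and 2 positive, and the groups overlapped for all 10. Eng in females on HFD was at 77.2, 87.3 and 81.3 CPM at 2 weeks and 73.9, 89.8 and 79.8 CPM at 12 weeks, with overlapping groups and a 95% interval of -0.26 to 0.23.

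After 2 weeks 1 call was made among the 10 genes in liver. Females over males on RD gave no call with 9.81% of all genes called, none with an unadjusted p under 0.05 and none by DESeq2. The sexes did not overlap there for 6 of the 10, and for 40.4% of all genes tested. The 10 log2 fold changes lay between -0.29 and 0.27. On HFD 1 gene was called, with 12.4% of all genes called, 3 with an unadjusted p under 0.05 and 1 DESeq2 call. This was Lyve1, lower in females at 10.1, 13.1 and 8.50 CPM against 14.4, 21.7 and 13.9 CPM in males, a difference of -0.65 ± 0.18 (adjusted p = 0.023). The groups did not overlap, and the call was lost without library 1 or 5 of the females or library 13 of the males, with adjusted p from 0.069 to 0.15. Library 13 of the males also carried bile duct markers summed at 298 CPM, against 29.4 and 49.1 CPM in its group, and their part in the result was not tested. Without it Stab1 was called, at 0.69 (adjusted p = 0.021). Diet gave no call in females, with 0.252% of all genes called, 2 of the 10 with an unadjusted p under 0.05 and none by DESeq2. It gave none in males either, with 0.34% called, 1 with an unadjusted p under 0.05 and none by DESeq2. The interaction of sex and diet gave none with 0% of all genes called, none with an unadjusted p under 0.05 and none by DESeq2.

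One 2-week library stood apart among the females on HFD. Number 5 had the lowest Kdr, Cdh5 and Stab2 of its group, at 46.5, 19.5 and 45.6 CPM, and also the lowest Lyve1 and Tek. It had the highest Stab1, Pecam1 and Clec4g of all 24 liver libraries, at 116, 35.1 and 67.9 CPM. Eng and Flt4 were neither lowest nor highest of the group. The library also had the smallest total in liver, 50.9 M counts. Its Kupffer cell and macrophage markers summed to 1376 CPM, against 656 and 751 CPM in the other libraries of the group. Stab1 is expressed in macrophages as well as in endothelium, and the part of those markers in its Stab1 level was not tested.

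Ordered by level, males on HFD at 12 weeks were lowest for 9 of the 10 genes, and for 8 of them, all but Stab1 and Lyve1, they did not overlap the next group, which was males on RD at 12 weeks in each case, the 8 genes given above beside the 9.07% of all genes. The ratio of the highest to the lowest group mean ran from 1.85 for Eng to 3.50 for Stab2. Females on RD at 2 weeks were highest for Kdr (73.9 ± 0.809 CPM, SD, n = 3), Cdh5, Eng and Clec4g, and females on HFD at 2 weeks for Pecam1, Stab1, Stab2, Tek and Flt4. Of 7 neighbouring pairs per gene, at most 2 were free of overlap for any gene. Lyve1 was highest in males on HFD at 2 weeks (16.6 ± 4.36 CPM) and lowest in males on RD at 12 weeks (7.52 ± 0.864 CPM).

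The 10 genes varied together across the 24 liver libraries, apart from Lyve1. The correlation of each gene with the mean of the other 9 is a description across libraries that share depth and group structure, and no test is attached. It was 0.86 to 0.96 for 8 genes, 0.57 for Stab1 and 0.16 for Lyve1. Outside the 10, the genes whose pattern in liver was most like their mean were Gpr124, a co-receptor for Wnt7 signalling in endothelium, at r = 0.967, She at 0.962, Itga9, an integrin subunit, at 0.955, Arhgap31 at 0.950 and Bace2 at 0.947. In fat they were Cbfa2t3 at 0.967, She at 0.960, Mmrn2 at 0.959, Sox18 at 0.959 and Tie1 at 0.958, again over 24 libraries. Mmrn2 is a matrix protein of endothelium, Sox18 an endothelial transcription factor and Tie1 the orphan receptor next to Tek in its family.

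Other endothelial genes, from lists that left out the 10, were lower in the same male group. Of 20 other liver sinusoidal genes, 15 were higher in females than in males on HFD at 12 weeks and none lower, 5 were lower on HFD than on RD in males at 12 weeks, and 12 were lower at 12 than at 2 weeks in males on HFD. The shares called over all genes tested were 17.3%, 1.12% and 17.1%. The medians were 0.89, -0.62 and -0.89, against 0.01, 0.02 and 0.02 over all genes tested. Ptgs1, the prostaglandin synthase COX-1, stood at 1.50 ± 0.20, -1.01 ± 0.19 and -1.80 ± 0.20 in the 3 comparisons. The mannose receptor Mrc1, which clears glycoproteins, was called in the first at 1.14 ± 0.15 and in the third at -0.99 ± 0.15. Kupffer cell and macrophage markers, described below, were lower in the same males, and their part in the Mrc1 values was not tested. The guidance factor Ntn4 was called in the first and second, at 1.18 ± 0.17 and -0.96 ± 0.17, and Dnase1l3, which digests circulating DNA, at 0.97 ± 0.15 and -0.77 ± 0.15. Of 27 other pan-endothelial genes tested, 16 were higher in females on HFD, 2 were lower on HFD in males and 13 were lower at 12 than at 2 weeks in males on HFD, with medians of 0.71, -0.47 and -0.68. Tie1 was at 0.84 ± 0.14 in females over males, and Cldn5 at -1.78 ± 0.26 over time. On RD at 12 weeks 2 of each list were called between the sexes, near the 8.81% of all genes, so those counts are no result about the lists.

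Ligands and partners of these receptors moved in part. Of 22 tested genes for ligands, co-receptors and targets of the VEGF, angiopoietin and BMP9 pathways, 11 were higher in females than in males on HFD at 12 weeks and none lower, with a median of 0.78 and 17.3% of all genes called. The semaphorin and VEGF co-receptor Nrp2 was at 1.10 ± 0.17, Acvrl1, the BMP9 receptor that works with Eng, at 1.20 ± 0.20, Gdf2, which encodes BMP9, at 0.77 ± 0.17, and Vegfc, the ligand of Flt4, at 0.71 ± 0.16. Vegfa, the main ligand of Kdr, named after its value was seen, was not called, at 0.10 ± 0.16. None of the 22 was called between the diets in males by edgeR, where 5 had an unadjusted p under 0.05, DESeq2 called 2 and 1.12% of all genes were called. From 2 to 12 weeks on HFD in males 7 were lower and 1 higher, with 17.1% of all genes called: Acvrl1 was at -1.11 ± 0.20, the BMP target Id3 at -1.71 ± 0.37, the Notch ligand Dll4 at -1.10 ± 0.25 and Vegfb at 0.95 ± 0.21. Of 6 tested lymphatic endothelial genes none was called by edgeR in females over males on HFD at 12 weeks, where 3 had an unadjusted p under 0.05 and DESeq2 called 2.

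Kupffer cell and macrophage markers, and part of the stellate and mural markers, moved with the endothelial genes. The 12 Kupffer cell and macrophage markers summed to 141 to 244 CPM in males on HFD at 12 weeks, to 360 to 425 CPM in males on RD, to 595 to 736 CPM in females on HFD and to 539 to 1036 CPM in females on RD at that time. Of the 12, 10 were higher in females on HFD, 3 were lower on HFD in males, and 11 were lower at 12 than at 2 weeks in males on HFD, where 17.3%, 1.12% and 17.1% of all genes were called. No marker of the list was at 0, and the Kupffer cell lectin Clec4f was at 38.0 to 65.2 CPM in males on HFD at 12 weeks. The 11 stellate and mural cell markers summed to 117 to 196 CPM in males on HFD, to 184 to 221 CPM in males on RD and to 257 to 329 CPM in females on HFD at 12 weeks. Of the 11, 6 were higher in females on HFD and 6 lower over time in males on HFD. The 8 hepatocyte markers summed to 111985 to 117468 CPM in males on HFD and to 109303 to 128768 CPM in females on HFD at 12 weeks, with none of the 8 higher and 1 lower in females. Bile duct markers summed to 41.3 to 74.5 CPM in males and 37.8 to 50.1 CPM in females on HFD at 12 weeks, and T and B cell markers to 9.22 to 13.0 CPM and 22.9 to 40.6 CPM. Adipocyte markers summed to 121 to 188 CPM in males and 78.8 to 94.6 CPM in females on HFD at 12 weeks, with 3 of 7 tested lower in females. Mesothelial and cell cycle markers were at 3.34 and 12.6 CPM or less in these 6 libraries. Epididymal and epithelial markers summed to 289 to 831 CPM in the males and 217 to 274 CPM in the females, with none of 5 tested called by edgeR, 3 at an unadjusted p under 0.05 and 2 called by DESeq2. The part of these other cells in the endothelial result was not tested.

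**Figure D4:**
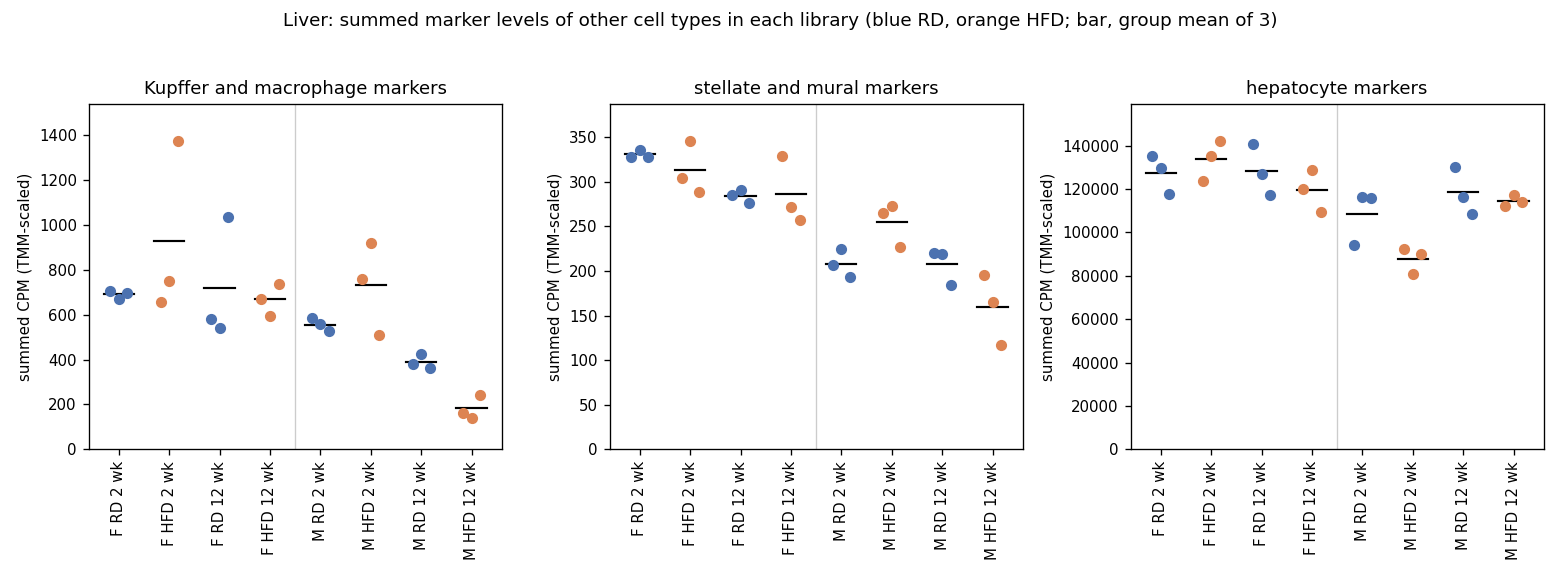
Summed CPM of marker genes of Kupffer cells and macrophages, of stellate and mural cells and of hepatocytes in the 24 liver libraries, with a bar at the mean of 3. The Kupffer cell and macrophage sum lies at 141 to 244 CPM in males on HFD at 12 weeks, below every other library.

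In visceral fat of males at 12 weeks 4 of the 10 genes were higher on HFD than on RD, with 28.2% of all 18325 genes called. The count of 4 is near that share, so it is no result about these genes. Eng measured 126, 47.9 and 37.3 CPM on RD and 162, 173 and 148 CPM on HFD (1.19 ± 0.41, adjusted p = 0.039). Pecam1 measured 219, 93.2 and 74.0 CPM and 273, 277 and 254 CPM (1.06 ± 0.37, adjusted p = 0.041). In both genes library 2 of the RD males lay close to the HFD libraries and libraries 3 and 4 far below. Stab1 measured 143, 81.7 and 83.8 CPM on RD and 169, 215 and 243 CPM on HFD (1.02 ± 0.29, adjusted p = 0.015). Stab2, scarce in fat, measured 1.16, 0.572 and 0.743 CPM and 1.87, 3.06 and 2.28 CPM (1.54 ± 0.40, adjusted p = 0.011). None of the 4 overlapped between the diets, where 43.4% of all genes tested did not overlap. Cdh5 also did not overlap, at 250.1, 68.1 and 27.9 CPM and 347, 343 and 303 CPM, and missed the threshold (1.52 ± 0.63, adjusted p = 0.077). Tek, Kdr, Flt4 and Lyve1 were not called, at 0.96, 0.98, 0.51 and 0.32. Clec4g, near the floor, went the other way at -1.51 without a call. It measured 0.387 to 0.925 CPM on RD and 0.0356 to 0.381 CPM on HFD, also without overlap.

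The calls in male fat depended on single libraries. None of the 10 was called without RD library 3, 1 without RD library 4 or HFD library 4, 2 without HFD library 2 or 3, and 7 without RD library 2. Over all genes 2420 to 6472 were called in these fits, against 5168 with all libraries. With the replicate number as a block 6 were called, Cdh5 at 2.10 (adjusted p = 0.024) and Tek at 1.18 (adjusted p = 0.020) in addition, and DESeq2 called 6. The median over the 10 was 1.00, against -0.11 over all genes tested. All 3 RD males at 12 weeks carried the epididymal transcripts, at 3083 to 5584 CPM, and none of the 3 HFD males did, at 1.16 to 6.31 CPM, so diet and epididymal tissue in the sample cannot be told apart in this comparison. Other cells changed there as well: 7 of 12 macrophage markers and all 7 cell cycle genes were higher on HFD, while 3 of 6 mesothelial markers and 5 of 9 epididymal and epithelial markers were lower. Macrophage markers summed to 509 to 681 CPM on RD and to 1818 to 2398 CPM on HFD. Of the others, 1 of 11 stellate and mural and 1 of 7 T and B cell markers were higher, 3 of 7 bile duct and 1 of 8 hepatocyte markers were lower, and 1 adipocyte marker was higher and 2 lower of 9. The part of these cells in the endothelial values was not tested.

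**Figure D5:**
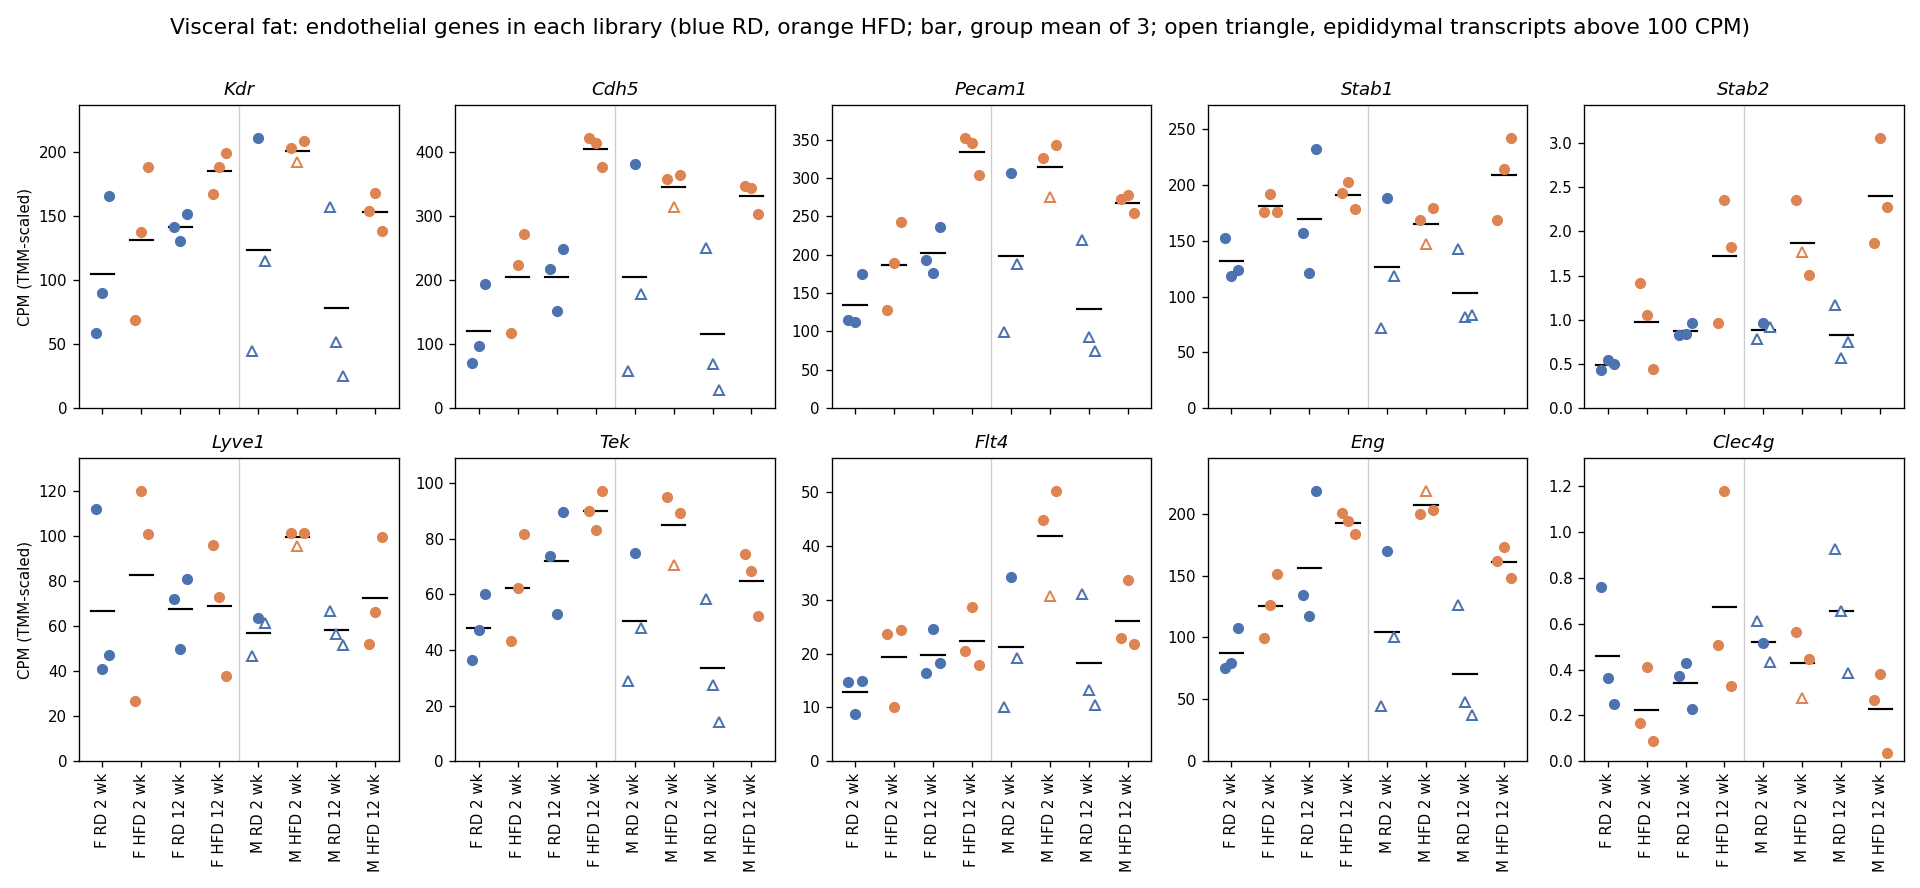
Level of each gene in the 24 fat libraries in CPM, by sex, diet (blue RD, orange HFD) and weeks, with a bar at the mean of 3 and open triangles for male libraries whose epididymal transcripts exceed 100 CPM. The 3 RD males at 12 weeks are all triangles, and 2 of them hold the lowest Cdh5 values of their sex at that time, 68.1 and 27.9 CPM.

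The counts of called genes in the related lists were near the 28.2% of all genes called in this comparison, and are no result about the lists. Of 28 other pan-endothelial genes 7 were higher on HFD in male fat at 12 weeks and none lower, with a median of 0.82. Sox17, an arterial transcription factor, was at 1.61 ± 0.41 and Cldn5 at 0.90 ± 0.28. Of the 20 other sinusoidal genes 5 were higher and 2 lower, with a median of -0.13, and Plxnc1 was at 2.25 ± 0.22. Among 23 tested ligands and partners 6 were higher and 1 lower. Tgfb1 was at 1.52 ± 0.21, and Angpt1, the activating ligand of Tek, was lower at -2.24 ± 0.33. None of the 7 lymphatic genes was called there, none had an unadjusted p under 0.05 and DESeq2 called none. Both Plxnc1 and Tgfb1 are also expressed by leukocytes.

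In female fat at 12 weeks no gene of the 10 was called between the diets, with 2.08% of all genes called, 1 of the 10 with an unadjusted p under 0.05 and none by DESeq2. For Kdr, Cdh5 and Pecam1 the 3 HFD libraries lay above the 3 on RD, as they did for 14.7% of all genes tested. Cdh5 measured 217, 151 and 248 CPM on RD and 422, 414 and 376 CPM on HFD, with a log2 fold change of 0.98 ± 0.62 and a 95% interval of -0.24 to 2.20. A fit of those 6 libraries alone called Cdh5 and Pecam1. The sex by diet interaction in fat at 12 weeks called none of the 10, with 1.25% of all genes called, 2 with an unadjusted p under 0.05 and none by DESeq2.

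Ordered by level in fat, males on RD at 12 weeks had the lowest mean for Kdr, Cdh5, Pecam1, Stab1, Tek and Eng. Eng was at 70.5 ± 48.6 CPM there (SD, n = 3) and Kdr at 77.8 ± 69.6 CPM, so the spread of that group was nearly as large as its mean for Kdr. Females on HFD at 12 weeks had the highest mean for Cdh5 (404 ± 24.8 CPM), Pecam1, Tek and Clec4g, males on HFD at 2 weeks for Kdr, Lyve1, Flt4 and Eng, and males on HFD at 12 weeks for Stab1 and Stab2. Of the 7 neighbouring pairs of groups per gene, at most 2 were free of overlap for any gene. The correlation of each gene with the mean of the other 9 over the 24 fat libraries is a description, as in liver. It was -0.12 for Clec4g, 0.37 for Lyve1, 0.56 for Stab2, 0.75 for Stab1, 0.74 for Flt4 and 0.89 to 0.97 for the other 5. Clec4g and Stab2 were scarce in fat.

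Between the sexes in fat none of the 10 was called. On RD at 12 weeks 10.6% of all genes were called and none of the 10, while 3 had an unadjusted p under 0.05 and DESeq2 called 2, Tek and Eng. Without library 2 of the males 6 were called, all higher in females. Eng measured 134, 117 and 218 CPM in females and 126, 47.9 and 37.3 CPM in males, with overlapping groups, and all 3 males carried epididymal transcripts. On HFD at 12 weeks 2.85% of all genes were called, 1 of the 10 had an unadjusted p under 0.05 and DESeq2 called none. Cdh5, Pecam1, Tek and Eng were above males in all 3 females there, as were 15.1% of all genes tested, with Cdh5 at 422, 414 and 376 CPM in females and 347, 343 and 303 CPM in males. At 2 weeks 4.28% of all genes were called on RD and 3.8% on HFD, with 1 and 2 of the 10 at an unadjusted p under 0.05 and none called by DESeq2. On HFD at 2 weeks Kdr, Cdh5, Pecam1, Stab2, Flt4 and Eng were below males in all 3 females. This held for 9.38% of all genes tested. The median over the 10 was -0.74 there, against -0.003 over all genes. For Kdr, Cdh5, Pecam1 and Eng the sign was opposite to that at 12 weeks. Stab2 and Flt4 had lower means in females on HFD at 12 weeks too, with overlapping groups. Stab2 was at 1.72 against 2.40 CPM and Flt4 at 22.4 against 26.1 CPM. On RD at 2 weeks only Stab2 lay below males in all 3 females, as did 12.8% of all genes tested.

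The remaining fat comparisons gave no call either. Diet at 2 weeks called 0.235% of all genes in females and 0% in males, with 1 and 3 of the 10 at an unadjusted p under 0.05. Leaving out 1 library moved the female count over all genes from 43 to between 3 and 1212. In the males Cdh5 ran from 57.1 to 380.3 CPM over the 3 RD libraries and from 313 to 363 CPM over the 3 HFD libraries. RD library 6, the lowest, also had the highest epididymal sum, 7386 CPM, and RD library 7, the highest, had 1.10 CPM. HFD library 13 reached 7067 CPM of epididymal transcripts with Cdh5 at 313 CPM. The interaction at 2 weeks called 0% of all genes, and none of the 10 had an unadjusted p under 0.05. Leaving out library 1 of the females on HFD at 2 weeks, which stood apart, also left none of the 10 called in the 4 comparisons it enters. Without the 3 male libraries at 2 weeks that carried epididymal transcripts, a choice made after seeing the data, still none of the 10 was called in the 6 comparisons they enter. From 2 to 12 weeks the shares of all genes called were 0% in females on RD, 1.51% in females on HFD, 0% in males on RD and 12.1% in males on HFD. In these, 2 of the 10 had an unadjusted p under 0.05 in females on HFD and none in the other 3. DESeq2 called none of the 10 in any of the fat comparisons at 2 weeks or over time.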

How the data were processed

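RNA was measured in 24 liver and 24 visceral fat libraries. The authors deposited expected counts per gene symbol, estimated and not scaled to library size. Per the submitters' processing notes kallisto, edgeR, DESeq2 and build GRCm38 were used. Their settings, and whether counting used strand, are not given in the sources used here. The values were rounded to whole numbers. Liver libraries held a median total of 69.9 M counts and fat libraries 63.2 M.

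Each tissue was fitted alone with edgeR 4.0.16 (R 4.3.3): all 8 groups, TMM scaling, a filter on low counts by group (filterByExpr), the robust quasi-likelihood test and Benjamini-Hochberg adjustment over all genes tested, with a call at an adjusted p under 0.05. Liver was set against fat in 1 fit of 48 libraries. All 10 genes passed each filter. The ± after a log2 fold change is an approximate standard error, its size over the square root of F. DESeq2 1.42.0, median-of-ratios scaling, no filter, the compared groups alone and leaving out each library were alternatives, and the fit was tested on simulated data.

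The genes and all lists were chosen with earlier results of these data known, and the study's title and labels gave the comparisons. The lists were other sinusoidal, other pan-endothelial and lymphatic genes, ligands and partners of the receptors, and markers of hepatocytes, Kupffer cells and macrophages, stellate and mural cells, bile duct, adipocytes, mesothelium, epididymis and epithelium, T and B cells and the cell cycle. Up to 4 genes per list were named by smallest p, and a few others are named in the text after their values were seen. The genes of like pattern had a mean log2 CPM of at least 1 (prior count 2) and the highest Pearson correlation with the mean of the 10 genes; predicted genes were left out.

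Of 48 pairs of libraries within a group, none agreed within sampling noise (chi-square per gene of 57.1 or more). For replicate numbers shared by RD and HFD males at 12 weeks, correlations of deviations from the group mean were 0.108 to 0.154 in 3 of 3 pairs in fat. In liver they were -0.11, 0.05 and 0.13. These values are small, and deviations within a group of 3 are not independent of one another. The labels do not state what a number means, so a pairing is not established.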

Additional observations from a re-analysis of the deposited data

How the results depend on the processing

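Of 3180 values of single genes under an alternative, over 29 comparisons, 3090 stayed on their side of the threshold, 57 lost a call, 33 gained one, and no call changed direction. Counts of called genes among the 10 moved as follows, each after the count reported, and the cause was not tested. In liver, females over males on HFD at 2 weeks went from 1 to 0 with the compared groups alone. Females over males on RD at 12 weeks went from 1 to 2 with DESeq2 and with the compared groups alone, and to 0 with median-of-ratios scaling and with no filter. Diet in males at 12 weeks went from 3 to 6 with DESeq2, to 4 with median-of-ratios scaling and with no filter, and to 0 with the compared groups alone. Time went from 0 to 1 with DESeq2 in males on RD and from 9 to 5 with the compared groups alone in males on HFD. In fat at 12 weeks, females over males on RD went from 0 to 2 with DESeq2, diet in females from 0 to 2 with the compared groups alone, and diet in males from 4 to 2 with no filter and with the compared groups alone. Leaving out 1 library gave 0 to 1 for females over males in liver on HFD at 2 weeks and on RD at 12 weeks, 8 to 9 for females over males and for time in males on HFD, 0 to 7 for diet in males at 12 weeks in liver and in fat, and 0 to 6 for females over males on RD at 12 weeks in fat. Leaving out each of the 48 libraries for liver over fat was not run. Depth limits Clec4g in fat most, at 0.0356 to 1.18 CPM.

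With the replicate number as a block, 6 in place of 4 were called for diet in males at 12 weeks in fat. In liver the same block gave 4 in place of 3, with Stab2 added (adjusted p = 0.022), and diet in females at 2 weeks gave 0 in liver and in fat. In all of these the libraries are known to share only a number. Correlations above 0.1 were seen in 1 of 3 male pairs and none of 2 female pairs in liver. In fat they were seen in 3 of 3 male pairs and 1 of 2 female pairs. Pairing liver with fat by number gave 8 calls as before, with Stab1 lost (adjusted p = 0.074) and Eng gained at 0.28 (adjusted p = 0.019); 2 of 24 pairs correlated above 0.1 and 16 of 24 libraries correlated best with their own number.

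Counts of called genes over all genes tested moved by over 1.5 times as follows, from the count of the reported fit to that of the alternative (sex, females over males; diet, HFD over RD; time, 12 over 2 weeks). With DESeq2 in liver they went 40 to 180 for diet females 2 weeks, 54 to 326 for diet males 2 weeks, 0 to 129 for interaction 2 weeks and 1 to 17 for diet females 12 weeks. Next were 178 to 451 for diet males 12 weeks, 0 to 69 for interaction 12 weeks, 0 to 59 for time females RD and 3 to 99 for time females HFD. Further were 37 to 278 for time males RD. With DESeq2 in fat they went 785 to 1986 for sex RD 2 weeks, 696 to 1918 for sex HFD 2 weeks, 43 to 1504 for diet females 2 weeks and 0 to 130 for diet males 2 weeks. Next were 0 to 72 for interaction 2 weeks, 1943 to 3857 for sex RD 12 weeks, 522 to 1174 for sex HFD 12 weeks and 381 to 1002 for diet females 12 weeks. Further were 229 to 1364 for interaction 12 weeks, 0 to 86 for time females RD, 276 to 1308 for time females HFD and 0 to 112 for time males RD. Then were 2210 to 3469 for time males HFD. With no filter in liver they went 40 to 25 for diet females 2 weeks, 0 to 1 for interaction 2 weeks, 1 to 0 for diet females 12 weeks and 3 to 0 for time females HFD. With no filter in fat they went 43 to 12 for diet females 2 weeks, 1943 to 1273 for sex RD 12 weeks and 276 to 159 for time females HFD. With those groups alone in liver they went 1560 to 2965 for sex RD 2 weeks, 1971 to 674 for sex HFD 2 weeks, 40 to 0 for diet females 2 weeks and 54 to 32 for diet males 2 weeks. Next were 0 to 1 for interaction 2 weeks, 2756 to 1135 for sex HFD 12 weeks, 1 to 0 for diet females 12 weeks and 178 to 0 for diet males 12 weeks. Further were 0 to 1 for interaction 12 weeks, 3 to 0 for time females HFD, 37 to 82 for time males RD and 2721 to 748 for time males HFD. With those groups alone in fat they went 696 to 28 for sex HFD 2 weeks, 43 to 0 for diet females 2 weeks, 522 to 1167 for sex HFD 12 weeks and 381 to 749 for diet females 12 weeks. Next were 5168 to 3075 for diet males 12 weeks, 229 to 941 for interaction 12 weeks, 0 to 1 for time females RD and 276 to 0 for time females HFD. With the block in liver they went 40 to 14 for diet females 2 weeks. With the block in fat they went 43 to 21 for diet females 2 weeks. With median-of-ratios scaling in liver they went 1 to 0 for diet females 12 weeks. Without the 3 male libraries with epididymal transcripts in fat they went 785 to 57 for sex RD 2 weeks, 696 to 269 for sex HFD 2 weeks, 0 to 1 for diet males 2 weeks and 0 to 13 for time males RD. Next were 2210 to 991 for time males HFD.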
